A study of Mus musculus with 6 samples.

Results

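Tubule transcription factors are 8 genes, Hnf4a, Pax2, Pax8, Lhx1, Pou3f3, Esrrb, Esrrg and Tfap2b, picked by symbol as regulators that give nephron segments their identity. All 8 were found among the 24422 genes counted, and all 8 were tested. Gene counts came from poly-A RNA of whole C57BL/6 kidneys taken at postnatal day 13, with 3 Control libraries (wild type) and 3 TfR1 knockout libraries (Tfr1f/f;SixCre), all from mice on an iron-sufficient diet of 220 ppm. In the knockouts, floxed exons of Tfrc, the gene of the transferrin receptor TfR1 that takes up transferrin-bound iron, were removed by Six2Cre, which acts in nephron progenitors. The collecting duct descends from the ureteric bud, outside that lineage, and the study reports that cells which escaped deletion populated tubules by this age. The study describes the Controls as wild type littermates, and the labels do not tie single kidneys to litters.

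The nephron forms from progenitors that turn into epithelium and are then patterned into proximal tubule, loop of Henle and distal tubule. Pax2, Pax8 and Lhx1 act early in this sequence, when progenitors become polarized epithelium, and Pax8 stays on in mature tubules. Hnf4a drives maturation of the proximal tubule, Pou3f3 (Brn1) is needed for the loop of Henle and the distal nephron, Tfap2b for the distal convoluted tubule, and the oestrogen-related receptors Esrrb and Esrrg belong to a nuclear receptor family known for switching on genes of energy metabolism.

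Library depth ran from 16591156 to 22898008 counts. Values below are normalized counts, that is counts divided by the DESeq2 size factor of the library, unless stated otherwise. Control replicate 3 stood apart from the other Controls. Against the mean of Control replicates 1 and 2, it held 0.532 times the level of the 8 factors (median, range 0.417 to 0.720), with all 8 lower. The same ratio was 0.520 for the median proximal tubule marker, 0.554 for the thick ascending limb (TALH), 0.471 for the collecting duct, 1.79 for stroma, 1.52 for endothelium and 0.995 over all 16509 genes tested. The part of this difference in the results was not tested, so results are given with and without that library where it matters. The targeted gene does not check the labels: Tfrc had a mean of 5229 in Control and 5640 in TfR1 knockout kidneys (log2 fold change 0.11, SE 0.29, DESeq2 adjusted p 0.853).

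Of the 8 factors, Lhx1 and Esrrb were lower and Pax8 was higher in TfR1 knockout kidneys, and 5 did not pass the test (DESeq2 Wald test, adjusted p under 0.05 over all genes). Over all genes tested, 7.18% passed as lower and 7.74% as higher. With a change of at least 2-fold as well, Lhx1 and Esrrb stayed, against 4.46% of all genes lower, and 0 factors were higher, against 4.41%. The groups did not overlap for the same 3 genes, 2 lower and 1 higher, whereas 16.9% of all genes had every knockout library below every Control and 16.9% had every one above. By edgeR's quasi-likelihood test 0 of 8 factors passed the adjusted threshold, against 6.02% of all genes, and by limma-voom 0 of 8 passed. At an unadjusted p under 0.05, edgeR counted Pax8 (p 0.00879), Lhx1 (p 0.00408) and Esrrb (p 0.00380). The shares of all genes that passed by limma-voom, or by edgeR at this unadjusted p, were not counted, so these 2 counts have no comparison. The calls below are therefore those of DESeq2, and the adjusted p of edgeR is given beside the calls of factors and markers. In whole-kidney RNA, fewer cells of a type and less RNA per cell cannot be told apart.

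**Figure D1:**
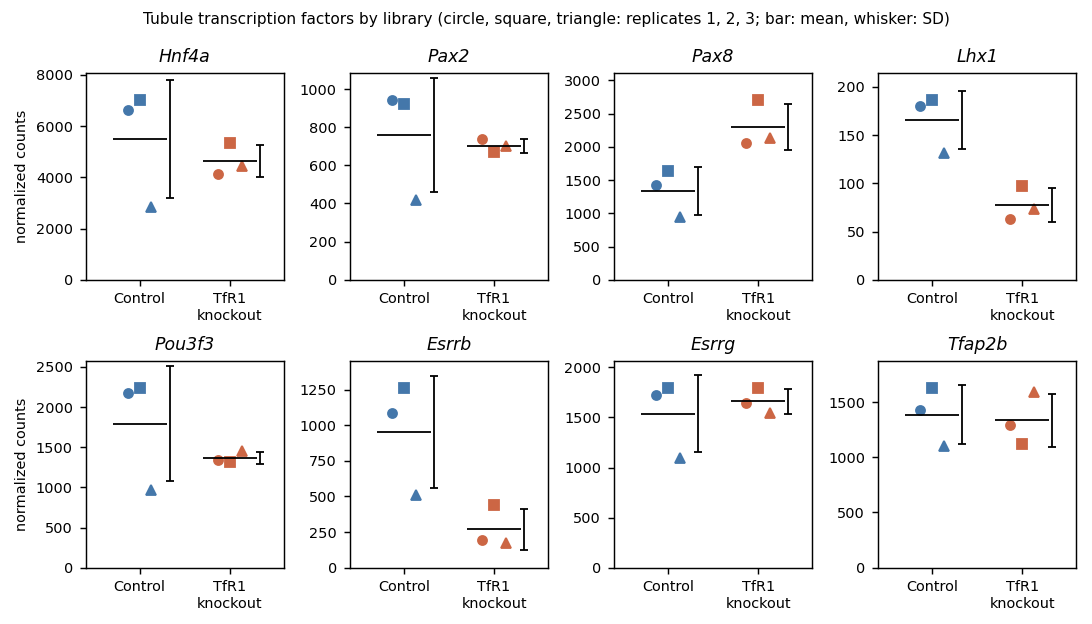
Normalized counts (vertical axes, from 0) of the 8 factors in each of the 3 Control (blue) and 3 TfR1 knockout (orange) libraries, with replicates 1, 2 and 3 as circle, square and triangle, a bar for the mean and a whisker for the SD. The groups are apart for Pax8, Lhx1 and Esrrb, and the triangle of Control replicate 3 is the lowest Control in every panel.

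The promoters of the 3 factors that passed by DESeq2 with all 6 libraries are shown. Each is the 250 bases before the RefSeq start site, read from mm9 at its 1 exact match, with no annotated exon in it. No capitals are used, since none of the motifs searched was found in them. The Lhx1 window is chr11:84339037-84339286 on the minus strand (64.8% GC), the Esrrb window chr12:87701817-87702066 on the plus strand (60.8% GC, the upstream of its 2 start sites), and the Pax8 window chr2:24331120-24331369 on the minus strand (60.4% GC). The median of 32536 promoters was 52.4% GC.
Lhx1 promoter: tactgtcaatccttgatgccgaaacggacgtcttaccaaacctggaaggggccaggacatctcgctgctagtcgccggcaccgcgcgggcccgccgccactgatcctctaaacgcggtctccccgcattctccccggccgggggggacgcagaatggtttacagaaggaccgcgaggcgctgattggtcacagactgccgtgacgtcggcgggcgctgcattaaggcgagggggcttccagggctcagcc
Esrrb promoter: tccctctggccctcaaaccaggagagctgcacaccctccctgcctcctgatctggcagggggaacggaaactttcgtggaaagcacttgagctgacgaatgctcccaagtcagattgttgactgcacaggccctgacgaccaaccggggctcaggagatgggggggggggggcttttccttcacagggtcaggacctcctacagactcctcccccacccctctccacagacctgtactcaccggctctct
Pax8 promoter: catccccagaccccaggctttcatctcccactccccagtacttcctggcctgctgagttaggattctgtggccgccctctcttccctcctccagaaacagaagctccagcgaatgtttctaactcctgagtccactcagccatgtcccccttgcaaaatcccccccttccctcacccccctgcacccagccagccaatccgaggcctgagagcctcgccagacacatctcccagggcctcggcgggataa
Letters searched on both strands in 15 start-site windows of the 8 factors included CAAAGTCCA (HNF4, in 0.387% of all promoters), TCAAGGTCA (oestrogen-related receptors, 0.375%), and the hypoxia cores ACGTG (16.652%) and GCGTG (28.347%). Of these, GCGTG was found in windows of Pax2, Esrrg and Tfap2b. A match is only a match of letters.

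Lhx1 (chromosome 11, 84331479 to 84338923, minus strand) encodes a LIM homeodomain protein of the early renal vesicle. It had 181, 186 and 131 normalized counts in the Control libraries and 62.6, 97.2 and 73.8 in the TfR1 knockout libraries, in the order of replicates 1 to 3, which holds for all values that follow. The highest knockout library was below the lowest Control. The log2 fold change was -1.10 (SE 0.30, DESeq2 adjusted p 0.00344, edgeR adjusted p 0.0566), a ratio of means of 0.469. Leaving out 1 library at a time gave -1.28 to -0.97, and the call was lost without Control replicate 1 (DESeq2 adjusted p 0.0829), Control replicate 2 (0.0847) or TfR1 knockout replicate 3 (0.0517). Without Control replicate 3 it was -1.24 (adjusted p 0.00216). Lhx1 was the least abundant of the 8, at 2.15 ± 0.316 reads per kilobase of exon, scaled to library depth (RPKM, mean ± SD, n = 3) in Control and 0.930 ± 0.133 in knockout kidneys. By the root mean square difference of centred log2 values over the 6 libraries, the nearest of 12114 genes (mean normalized count 100 or more) were Slc26a4, the apical anion exchanger pendrin (difference 0.0778), and Slc39a8, a metal ion importer (0.0780).

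Nascent nephron genes were read beside Lhx1, since it is known from that stage. Of 6 genes (Wnt4, Fgf8, Dll1, Jag1, Bmp2 and Cdh6), 5 were tested and 0 passed in either direction by DESeq2, with a median log2 fold change of -0.35 against 0.0071 for all genes tested. At an unadjusted DESeq2 p under 0.05, 0 of the 5 passed as well, and by edgeR 0 passed. The share of all genes under that unadjusted DESeq2 p was not counted, so counts at it, here and below, have no comparison. Fgf8, at 0 to 1.28 normalized counts, was the gene not tested. Whether nascent nephrons remained at this age, or which cells made these transcripts, was not tested. Six2, the gene of nephron progenitors whose promoter drives the Cre, was at 3.64 to 5.38 normalized counts in Control and 6.40 to 7.96 in knockout kidneys. Both ranges are near the bottom of what was counted.

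Esrrb (chromosome 12, 87702067 to 87862578, plus strand) showed the largest change of the 8. Its values were 1082, 1260 and 509 in the Control libraries, and 191, 438 and 176 in the TfR1 knockout libraries. Knockout replicate 2 stood highest in its group, yet below Control replicate 3. Its log2 fold change was -1.83 (SE 0.44, DESeq2 adjusted p 0.000776, edgeR adjusted p 0.0552), a ratio of means of 0.282. It passed in 6 of 6 fits that left out 1 library, with values from -2.37 to -1.58, and was -2.13 without Control replicate 3 (DESeq2 adjusted p 1.28e-05). Its level was 8.33 ± 3.20 RPKM in Control and 2.14 ± 0.951 in knockout kidneys. The genes nearest to it in pattern were AI314278 (0.268) and Ppp1r1a, an inhibitor of protein phosphatase 1 (0.277). Both differences are wider than for any other factor, so no gene followed Esrrb as closely as genes followed the other 7.

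Esrrg (chromosome 1, 189432670 to 190038764, plus strand), the close relative of Esrrb, had 1723, 1793 and 1093 normalized counts in Control and 1647, 1790 and 1545 in TfR1 knockout kidneys. The knockout libraries lay inside the Control range. This was a log2 fold change of 0.11 (SE 0.24, DESeq2 adjusted p 0.809), and it was -0.086 without Control replicate 3. Pigg, an enzyme of the glycosylphosphatidylinositol anchor (0.0134), and Vwa8, a mitochondrial protein (0.0317), were nearest to it. Within a library, the log2 ratio of Esrrb to Esrrg was -0.67, -0.51 and -1.10 in the Controls and -3.10, -2.03 and -3.13 in the knockouts. The groups did not overlap, and the difference of the means was -1.99 (SE 0.40, n = 3 each, two-sided exact permutation p 0.1, adjusted over 10 ratios 0.125). With 3 libraries a group, 0.1 is the smallest p this test can give. Of 6 genes known as targets of these receptors (Acadm, Idh3a, Cycs, Atp5b, Pdk4 and Cpt1b), 0 passed by DESeq2 or edgeR, and at an unadjusted p under 0.05 DESeq2 counted Pdk4 (p 0.0149, log2 fold change 2.48, SE 1.02), a kinase that restrains pyruvate oxidation. Its knockout values were 3434, 25171 and 3895, with replicate 2 far above the others, and without that library the log2 fold change was 0.92 (SE 0.38, DESeq2 adjusted p 0.101). Without knockout replicate 1 it was 2.90 and passed (DESeq2 adjusted p 0.0236).

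Pax8 (chromosome 2, 24276071 to 24331119, minus strand) encodes a paired box factor of tubule epithelium. Its values were 1423, 1642 and 945 in Control and 2061, 2702 and 2128 in TfR1 knockout kidneys, so that every knockout library was above every Control. Its log2 fold change was 0.78 (SE 0.26, DESeq2 adjusted p 0.0212, edgeR adjusted p 0.0830), a ratio of means of 1.72. Without Control replicate 3 it was 0.58 (DESeq2 adjusted p 0.0403). The call was lost without Control replicate 1 (0.0928), knockout replicate 2 (0.114) or knockout replicate 3 (0.0713). Scaling the libraries to 7 genes expressed in tubule and collecting duct epithelium, which lowered the median of all genes to -0.40, gave 0.43 (DESeq2 adjusted p 0.281), also without a call. Relative to that median, the change was upward under both scalings. The exons share 87 bases with Gm13415, a transcript on the other strand, whose reads cannot be told apart without strand. Cdcp1 (0.0562), a membrane glycoprotein, and Hpcal1 (0.0645), a calcium sensor, were nearest in pattern.

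Pax2 (chromosome 19, 44830539 to 44912758, plus strand), the paralogue of Pax8, had 942, 919 and 415 normalized counts in Control and 740, 668 and 701 in TfR1 knockout kidneys. Knockout libraries lay between Control replicate 3 and the other Controls. The log2 fold change was -0.11 (SE 0.32, DESeq2 adjusted p 0.865), and without Control replicate 3 it was -0.41 (adjusted p 0.0777). The 2 genes closest to it were Bpnt1, a phosphatase (0.0674), and Efhd1, a mitochondrial calcium-binding protein (0.0684). The log2 ratio of Pax2 to Pax8 was -0.60, -0.84 and -1.18 in the Control libraries and -1.48, -2.01 and -1.60 in the knockouts. The groups did not overlap, with a difference of -0.83 (SE 0.24, n = 3 each, exact permutation p 0.1, adjusted 0.125). Beside them, Gata3, a zinc finger factor of the collecting duct that Pax factors are known to control, passed as higher by DESeq2, and Ret and Slc14a2 did not.

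Hnf4a (chromosome 2, 163332544 to 163398646, plus strand) had 6613, 7012 and 2841 normalized counts in Control and 4139, 5327 and 4437 in TfR1 knockout kidneys. All knockout libraries lay between Control replicate 3 and the other 2 Controls. The log2 fold change was -0.24 (SE 0.34, DESeq2 adjusted p 0.693). Without Control replicate 3 it was -0.56 and passed (DESeq2 adjusted p 0.0236). Hnf4a was the most abundant factor in both groups, at 58.0 ± 22.8 RPKM in Control and 45.7 ± 2.49 in knockout kidneys. Nearest to it were Igsf11, a cell adhesion molecule (0.0787), and Xylb, a xylulose kinase (0.0934).

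Pou3f3 (chromosome 1, 42753991 to 42757052, plus strand, annotated as 1 exon) had 2173, 2235 and 968 normalized counts in Control and 1335, 1315 and 1452 in TfR1 knockout kidneys. As for Hnf4a, Control replicate 3 was the lowest of the 6 and the knockouts lay between it and the other Controls. With all libraries the log2 fold change was -0.39 (SE 0.32, DESeq2 adjusted p 0.458). Without Control replicate 3 it was -0.69 and passed (DESeq2 adjusted p 0.000135). Xylb, next to Hnf4a in pattern, was also among the 2 nearest to Pou3f3 (0.0982), after Cadm4, a cell adhesion molecule (0.0960).

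Tfap2b (chromosome 1, 19198995 to 19228815, plus strand) encodes the transcription factor AP-2 beta. Its values were 1431, 1627 and 1101 in Control and 1295, 1118 and 1592 in TfR1 knockout kidneys. The groups overlapped over almost their whole range. The log2 fold change was -0.054 (SE 0.23, DESeq2 adjusted p 0.912), and -0.20 without Control replicate 3 (adjusted p 0.618). The 2 genes closest to it were Zadh2 (0.0661), an oxidoreductase, and Pxylp1 (0.0705), a phosphatase.

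**Figure D2:**
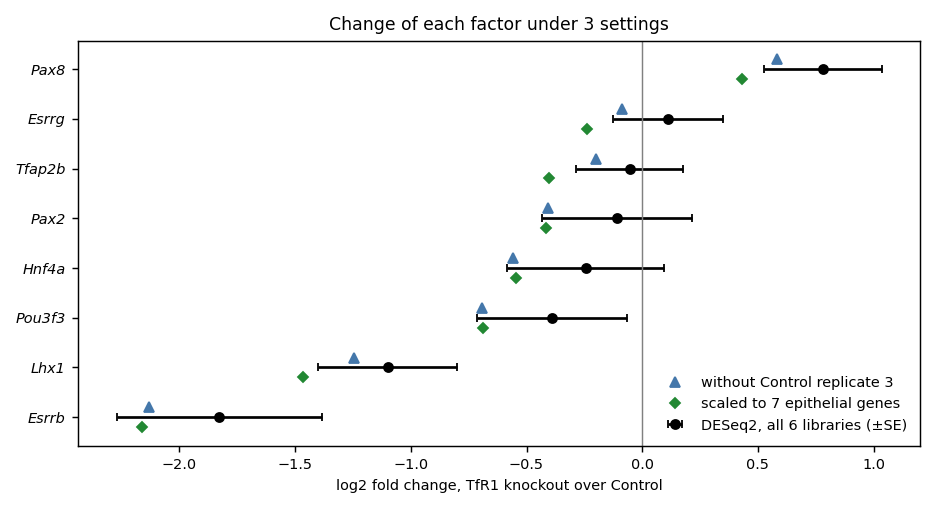
Log2 fold change of each factor in TfR1 knockout over Control kidneys (horizontal axis) by DESeq2 with all 6 libraries (black circles, bars for the SE), without Control replicate 3 (blue triangles) and scaled to 7 epithelial genes (green diamonds). Under all 3 settings Esrrb and Lhx1 lie farthest left and Pax8 lies right of 0, between 0.43 and 0.78, and Esrrg changes side.

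Per length, the order of the factors in Control was Hnf4a, Pou3f3, Esrrg, Pax8, Tfap2b, Esrrb, Pax2 and Lhx1. Only Pou3f3 over Esrrg (31.0 and 13.2 RPKM) and Pax2 over Lhx1 (6.94 and 2.15) had neighbouring ranges that did not overlap. Within a library, the order also held in 3 of 3 Controls for Hnf4a over Pou3f3, Esrrg over Pax8, Tfap2b over Esrrb and Esrrb over Pax2. For Pax8 over Tfap2b it held in 2 of 3. In TfR1 knockout kidneys the order was Hnf4a, Pou3f3, Pax8, Esrrg, Tfap2b, Pax2, Esrrb and Lhx1. Pax8 (11.7 ± 2.72 in Control, 18.7 ± 1.14 RPKM in knockout kidneys) moved above Esrrg (13.2 ± 2.88 and 13.3 ± 0.455), and Esrrb moved below Pax2. Here the ranges overlapped only between Pou3f3 and Pax8 and between Esrrg and Tfap2b. The coding transcripts of the 8 shared no stretch of 30 bases, so near-identical copies among them did not divide reads. The coding transcripts of Pax8 held 2712 distinct stretches and those of Esrrg 5787, against exon lengths of 6076 and 6208 bases. The order of the factors could thus differ with another length, and no other length was tried.

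The segment markers were read beside the factors assigned to each segment. Of 10 proximal tubule markers, 3 fell and 1 rose by DESeq2, with a median log2 fold change of -0.64 (by edgeR 1 fell and 1 rose). Of the 2 most abundant, the phosphate transporter Slc34a1 had 36675 ± 16618 normalized counts in Control and 20582 ± 5702 in knockout kidneys (log2 fold change -0.83, DESeq2 adjusted p 0.131), and it passed when Control replicate 3 (-1.17, 0.000178) or knockout replicate 1 (-1.07, 0.0477) was left out. The endocytic receptor Lrp2 fell from 21473 ± 7433 to 7700 ± 2736 (-1.48, DESeq2 adjusted p 0.000460, edgeR adjusted p 0.0537). Of 9 TALH markers 7 fell and 0 rose, with a median of -1.44 (6 fell by edgeR). Umod, the main urinary protein, fell from 39215 ± 14669 to 3126 ± 1431 (log2 fold change -3.65, DESeq2 adjusted p 1.16e-15, edgeR adjusted p 0.0101). The sodium-potassium-chloride cotransporter Slc12a1 fell from 30002 ± 9146 to 13108 ± 5163 (-1.19, DESeq2 adjusted p 0.00617, edgeR adjusted p 0.0854), a call that was lost without Control replicate 1 (DESeq2 adjusted p 0.0694), Control replicate 2 (0.0782) or TfR1 knockout replicate 3 (0.0708). Of 5 distal convoluted tubule markers 4 fell, with a median of -2.07, also by edgeR. The thiazide-sensitive cotransporter Slc12a3 fell from 17080 ± 5621 to 1081 ± 506 (-3.98, DESeq2 adjusted p 1.19e-22, edgeR adjusted p 0.00505), and the calcium exchanger Slc8a1 did not pass (-0.26, adjusted p 0.547). Of 6 collecting duct markers, 3 rose and 0 fell, with a median of 0.44 (1 rose by edgeR). The water channel Aqp2 rose from 4579 ± 1881 to 30696 ± 17578 (2.74, DESeq2 adjusted p 4.92e-08, edgeR adjusted p 0.0255), and Hsd11b2, the enzyme that inactivates glucocorticoids in these cells, did not pass (-0.34, adjusted p 0.732), with -1.07 when knockout replicate 1 and 0.065 when knockout replicate 2 was left out. Of 7 genes common to tubule and collecting duct epithelium, 0 passed by DESeq2 or edgeR, with a median of 0.37, and 2 passed at an unadjusted p under 0.05, Cdh1 (p 0.0422) and Spint1 (p 0.0174). Among these, the kidney cadherin Cdh16 was at -0.15 and E-cadherin Cdh1 at 0.62.

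**Figure D3:**
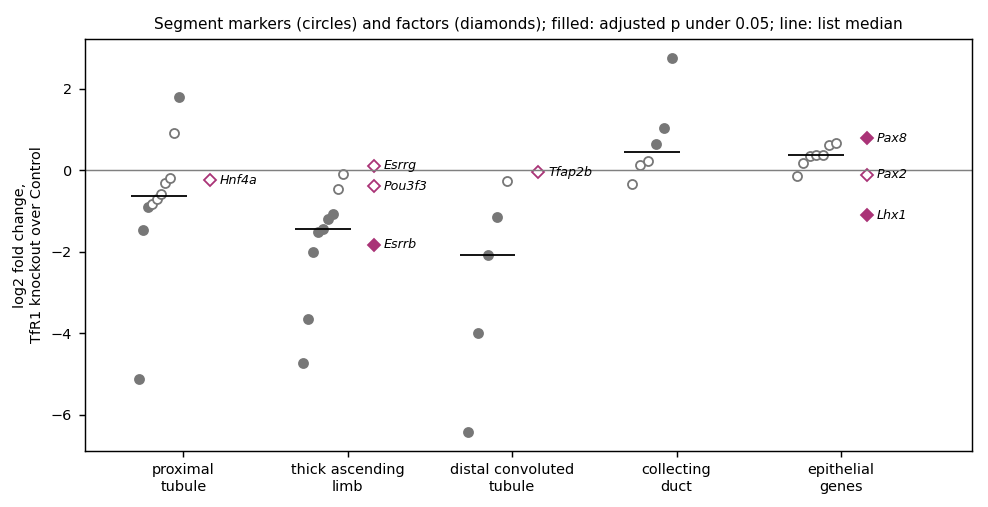
Log2 fold change in TfR1 knockout over Control kidneys (vertical axis) of segment markers (circles, line at the list's median) and of the factors read beside them (diamonds), filled where the DESeq2 adjusted p was under 0.05. Tfap2b at -0.054 lies above every marker of the distal convoluted tubule, and Esrrb at -1.83 lies among the markers of the TALH.

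To compare factor and markers without a scaling between libraries, the log2 ratio of each factor to the geometric mean of its markers was taken within each library. For Tfap2b and the distal convoluted tubule it was 0.080, 0.048 and 0.38 in Control and 2.79, 2.22 and 3.56 in TfR1 knockout kidneys, a difference of 2.69 (SE 0.40). The transcript of Tfap2b was thus higher against these markers in all 3 knockout libraries. One of these 5 markers, the calcium-binding protein Pvalb, was near 0 in knockout kidneys (0.99, 8.96 and 1.89 normalized counts), and against the other 4 the difference was 1.82 (SE 0.36), also without overlap. For Esrrg and the TALH the ratio was -1.72, -1.80 and -1.48 in Control and 0.054, 0.18 and 0.48 in knockout kidneys (difference 1.90, SE 0.16). For Pou3f3 and the same markers it was -1.39, -1.48 and -1.65 against -0.25, -0.27 and 0.39 (difference 1.47, SE 0.23). Both factors were higher against TALH markers in every knockout library. Of 5 genes known to need Pou3f3 (Umod, Slc12a1, Bsnd, Kcnj1 and Ptger3), all of them among those markers, 4 fell by DESeq2 and 3 by edgeR, and the prostaglandin receptor Ptger3 did not pass. For Esrrb, in contrast, the ratio to TALH markers was -2.39, -2.31 and -2.58 in Control and -3.05, -1.85 and -2.65 in knockout kidneys. These groups overlapped (difference -0.088, SE 0.36, n = 3 each, exact permutation p 0.8). Which cells made each factor was not tested, and in whole-kidney counts its reads need not come from the segment of its markers.

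For Hnf4a and the proximal tubule the log2 ratio was -0.70, -0.62 and -1.06 in Control and -0.49, -0.19 and 0.12 in TfR1 knockout kidneys (difference 0.61, SE 0.22). For Pax8 and the common epithelial genes it was -1.34, -1.20 and -1.30 against -1.03, -0.72 and -0.81 (difference 0.43, SE 0.10). Lhx1 moved the other way, with -4.31, -4.33 and -4.14 in Control and -6.04, -5.50 and -5.65 in knockout kidneys (difference -1.47, SE 0.18). For Pax2 the groups overlapped (difference -0.40, SE 0.19, n = 3 each, exact permutation p 0.2). The 6 factors whose ratios did not overlap, and both paralogue ratios, each had a two-sided exact permutation p of 0.1, the smallest possible with n = 3 each, and 0.125 adjusted over 10 ratios, so none passed 0.05. The direction of these 8 ratios held without Control replicate 3. The share of all genes whose ratios to the same lists did not overlap was not counted, nor was that share for pairs of genes. Each paralogue ratio holds a factor already called, Pax8 or Esrrb, so it is not separate from that call. The median marker log2 fold change was -2.07 (distal convoluted tubule), -1.44 (TALH) and -0.64 (proximal tubule). Over all genes tested it was 0.0071, so a transcript with no change would also rise against these lists. Against the common epithelial genes, with a median of 0.37, it would fall.

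**Figure D4:**
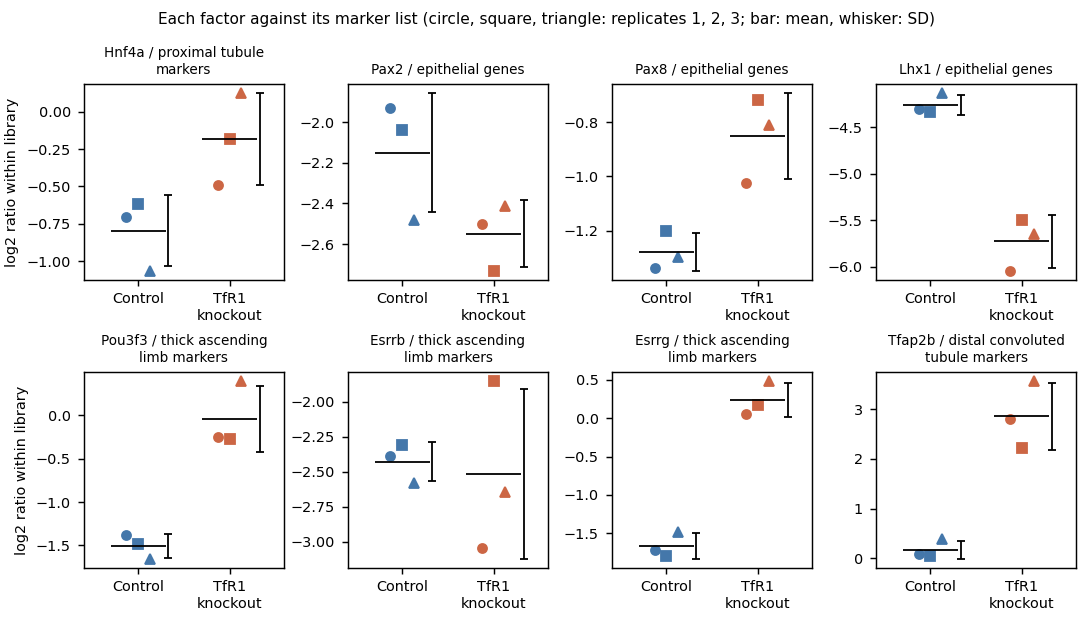
Log2 ratio of each factor to the geometric mean of its marker list within each library (vertical axes, which do not start at 0), for 3 Control (blue) and 3 TfR1 knockout (orange) libraries, with a bar for the mean and a whisker for the SD. The groups are apart in 6 panels and overlap for Esrrb and Pax2.

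Markers of other cell types also differed between libraries. As summed counts per library depth (CPM), the 4 stromal markers ran from 2158 to 4088 in Control and from 1033 to 2404 in TfR1 knockout kidneys, the 4 endothelial markers from 417 to 719 and from 509 to 660, and the 4 podocyte markers from 558 to 799 and from 651 to 880. The 4 macrophage markers ran from 88.9 to 131 in Control and from 154 to 255 in knockout kidneys, with no overlap, and 2 of the 4 rose by DESeq2 and by edgeR. Of the stromal and podocyte markers 0 of 4 each passed by DESeq2 or edgeR, with Col1a2 alone at an unadjusted p under 0.05 (p 0.0360), and of the endothelial markers 1 of 4 (Flt1) rose by DESeq2 and 0 by edgeR. Their median log2 fold changes were -0.38 (stroma), 0.040 (podocyte), 0.28 (endothelium) and 1.28 (macrophage). The part of these cells in the values of the 8 factors was not tested.

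Of 30 other transcription factors of the nephron, collecting duct and kidney development, 1 fell and 4 rose by DESeq2, and 2 rose by edgeR (Wt1 and Eya1). Their median log2 fold change was 0.13. Irx1, a homeobox factor of the middle of the nephron, had 861, 1065 and 399 normalized counts in Control and 332, 375 and 350 in TfR1 knockout kidneys (log2 fold change -1.14, SE 0.35, DESeq2 adjusted p 0.0132, edgeR adjusted p 0.0835). The call was lost without Control replicate 1 (DESeq2 adjusted p 0.109), Control replicate 2 (0.158) or TfR1 knockout replicate 3 (0.0731). Irx1 thus shared its direction with Lhx1 and Esrrb. Eya1, a co-regulator of nephron progenitors, was low in all libraries, at 18.1, 9.09 and 9.69 in Control and 46.7, 46.1 and 68.1 in knockout kidneys (2.11, SE 0.49, DESeq2 adjusted p 0.000418, edgeR adjusted p 0.0311). Wt1, a zinc finger factor of podocytes and progenitors, had 502, 511 and 427 against 851, 1186 and 1283 (1.20, SE 0.22, DESeq2 adjusted p 2.99e-06, edgeR adjusted p 0.0159). Wt1 was higher in every knockout library, while the median of the podocyte markers was 0.040. Gata3 had 720, 699 and 464 against 1122, 1070 and 1066 (0.79, SE 0.22, DESeq2 adjusted p 0.00517, edgeR adjusted p 0.0537). Ppara, the nuclear receptor of fatty acid oxidation, had 1083, 1153 and 512 against 1629, 5922 and 2092 (1.81, SE 0.49, DESeq2 adjusted p 0.00365, edgeR adjusted p 0.0884), with knockout replicate 2 far above the others, and 1.02 without it (DESeq2 adjusted p 0.0484). The remaining 25 did not pass.

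**Figure D5:**
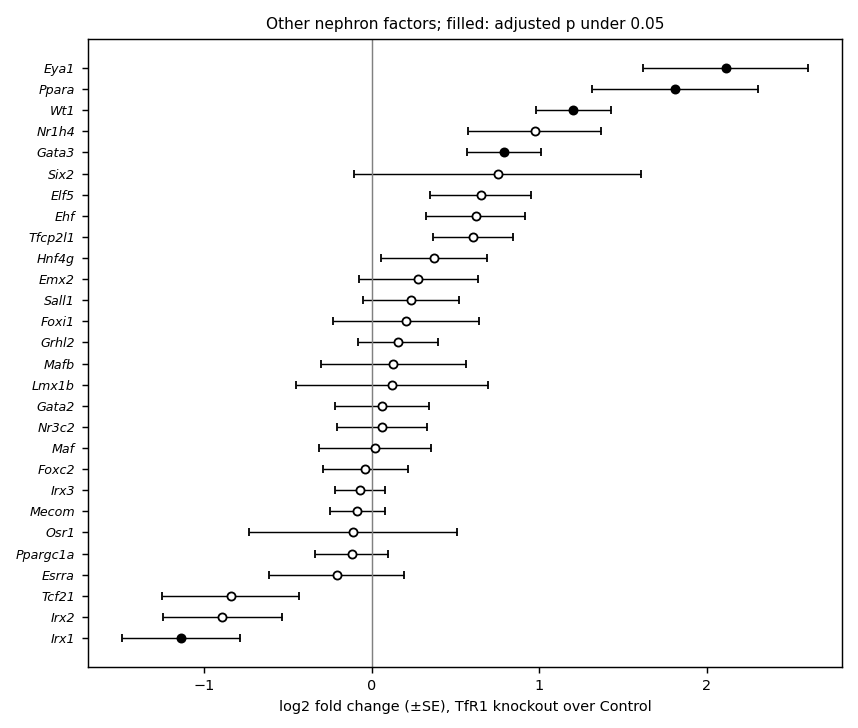
Log2 fold change with SE (horizontal axis) of the other nephron and kidney transcription factors reported here, in TfR1 knockout over Control kidneys, filled where the DESeq2 adjusted p was under 0.05. Irx1 is filled on the left and Gata3, Wt1, Ppara and Eya1 on the right, and the other circles are open.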

How the data were processed

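RNA from 6 mouse kidneys (3 Control, 3 TfR1 knockout) was sequenced as poly-A, single-end libraries by the authors. They trimmed reads with Trimmomatic, aligned them to mm9 with TopHat (2.0.11), kept unique alignments and deposited raw counts per gene from HTSeq (its version and strand setting are not given in the sources used here). Groups came from the labels.

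Counts of 24422 genes (19985 with at least 1 read) were fitted with DESeq2 1.42.0 in R 4.3.3, the tool and thresholds of the study: Wald test, median-ratio size factors, no covariate, Benjamini-Hochberg adjustment, a call at an adjusted p under 0.05, also with a fold of 2. Independent filtering left 16509 genes, with a lowest mean count of 3.51, and 29 genes had no p by outlier filtering. The code was tested on simulated data. Ratios within libraries used counts plus 1 and exact permutation tests. RPKM used GENCODE exon lengths and promoters came from RefSeq, both on mm9.

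The alternatives were edgeR 4.0.16, limma 3.58.1 with voom, other size factors and filters, a replicate block and leaving out each library. The members, gene lists and tests were chosen with earlier results of these data known. Named genes were the 8 members, other factors that passed, the 2 most abundant markers of each tubule list and the 2 genes nearest each member in pattern. Others were named after their values were seen. Some list genes and motifs enter the counts but are not reported here by name. The study describes 3 mice per group for its RNA sequencing. The labels tie no library to an animal, so p-values measure the spread between these samples. Depth of 16591156 to 22898008 counts makes counting error small for the more abundant members, and 3 libraries per group limit the precision. For Lhx1, with 63, 76 and 78 raw counts in the TfR1 knockout libraries, counting error is larger.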

Additional observations from a re-analysis of the deposited data

How the results depend on the processing

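Under the 16 other fits (10 other settings, and 6 that left out 1 library each), Pax8 stayed higher and Lhx1 and Esrrb lower. Leaving out 1 library at a time gave 1 to 4 factors lower and 0 to 1 higher, 1 to 2 lower by at least 2-fold, and 0 to 2 lower and 4 to 5 higher among the 30 other factors. By edgeR and by limma-voom, 0 factors were lower, 0 higher and 0 lower by at least 2-fold, and 0 of the other factors fell. By edgeR, 2 of the other factors and 4 segment markers rose. Scaling to the 7 epithelial genes moved the median of all genes from 0.0071 to -0.40 (log2) and gave 0 factors higher, 3 of the other factors lower and 2 higher, and -0.24 for Esrrg. With total-count or upper-quartile size factors, 2 of the other factors fell. Signs changed for 3 factors that had no call: leaving out 1 library gave -0.41 to 0.069 for Pax2, -0.086 to 0.23 for Esrrg and -0.20 to 0.070 for Tfap2b. Leaving Pvalb out of the markers set against Tfap2b, chosen after seeing the data, gave a difference of 1.82 in place of 2.69, since Pvalb fell most. Why the other values moved was not tested.

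Groups share replicate numbers, but same-numbered libraries deviated together only weakly (correlations 0.015, 0.066 and 0.15 over 16509 genes), and the numbers were treated as names only. With the replicate number as a block, 2 factors were lower and 1 higher, and 3 of the other factors fell and 5 rose. The depth limits Six2, Eya1 and other genes with few counts, and 3 libraries per group limit the rest.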
